A study of Mus musculus with 14 samples.

Results

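The genes described here are 37 lysosomal genes of the mouse, chosen by name, out of 34452 mouse gene rows in the table. They comprise 13 subunits of the proton pump (V-ATPase), 10 cathepsins, 4 membrane proteins including 1 channel, 4 glycosidases, 4 proteins of lipid and sterol handling and 2 transcription factors. All 37 passed the filter on low counts, which kept 16289 mouse genes, and the smallest count of any of the 37 in any library was 246. They were followed in the RPE (retinal pigment epithelium), a sheet of cells that nurses the photoreceptors. It was taken from 7 rd1 mice aged 20 days (P20), of strain FVB/N by the paper's methods. The paper counts fewer pairs of eyes for this comparison than the 7 in the table and does not explain the difference. All 7 were used here. The rd1 allele removes the function of Pde6b, the rod phosphodiesterase, in every animal, so the rods of both groups degenerate. In each mouse, 1 eye received AAV-Best1-GFP alone (control), and the other received AAV-Best1-GFP together with AAV-Best1-Nrf2, which encodes human Nrf2 (Nrf2). The Best1 promoter is active in the RPE, and the Nrf2 eye differed from its partner by the transgene and also by an added vector with another capsid. No library of an uninjected eye or of a mouse with intact rods was used here.

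Lysosomes are the acid compartment in which a cell takes apart what it engulfs and its own worn parts. The V-ATPase acidifies them: its membrane sector V0 carries the protons and its cytosolic sector V1 hydrolyses ATP. Cathepsins are proteases, and the glycosidases, lipases and sterol carriers deal with sugars, lipids and cholesterol. The transcription factors TFEB and TFE3 drive many of these genes together through a promoter element called CLEAR, whose core is an E-box. The RPE depends on this system, since it swallows and degrades shed photoreceptor outer segments every day. Nrf2 activates genes through another element, the antioxidant response element.

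Total counts ranged from 16548349 to 50543008 per library. The vector transcript checked the labels: human NFE2L2 ranged from 1163 to 8711 CPM (counts scaled to a total of 1000000) in Nrf2 eyes and from 1.12 to 1163 CPM in control eyes. The libraries labelled control 3 and Nrf2 4 stood at the same level and apart from the rest of their groups, so the results are also given without mice 3 and 4. The RPE markers summed to between 21090 and 39800 CPM across the 14 libraries. All 15 were detected, though Best1 itself had a median of only 1.63 CPM in control and 2.11 CPM in Nrf2 eyes. Of the 15, 8 had a fitted change above 0 and 7 below, and 1 passed: Rpe65, the retinoid isomerase (log2 fold change -2.17, SE 0.37, adjusted p = 0.0199). At an unadjusted p under 0.05 there were 2, Rpe65 and Ttr, and DESeq2 and voom each called 1 higher and 1 lower. Ttr had medians of 3328 CPM in control and 8806 CPM in Nrf2 eyes (1.58, SE 0.45, adjusted p = 0.104), higher in 6 of 7 mice. Rod and cone markers moved with the treatment: 12 of them summed to between 49.7 and 1062 CPM in control and between 20.3 and 141 CPM in Nrf2 eyes, all 12 had a fitted change below 0, 2 passed, 8 had an unadjusted p under 0.05, and DESeq2 called 8 lower and voom 9. By edgeR 0 of 10 fibroblast, 8 endothelial and 6 melanocyte markers passed, with 0, 0 and 1 at an unadjusted p under 0.05, while DESeq2 called 0, 0 and 1 and voom 0. The fibroblast markers summed to between 199.8 and 1623 CPM in control eyes (median 1435 CPM). In Nrf2 eyes they summed to between 724.5 and 1726 CPM (median 1240 CPM). Control 6 had the lowest fibroblast sum and also the lowest melanocyte sum. The melanocyte markers summed to between 601.5 and 1257 CPM in control and between 1108 and 1508 CPM in Nrf2 eyes. Most of that sum came from 2 pigment cell genes, Tyr (medians of 489 and 676 CPM) and Mlana (343 and 394 CPM). Sox10 had medians of only 42.4 and 54.0 CPM, and the 1 marker at an unadjusted p under 0.05 was Tyr. No marker of these cells was at 0 in all libraries, and their part in the lysosomal results was not tested. Beside the counts of all marker lists stand the shares of all genes tested. By edgeR 2.94% were higher and 0.491% lower, and 10.7% and 7.49% at an unadjusted p under 0.05. DESeq2 called 7.6% higher and 4.33% lower, and voom 9.73% and 6.17%. All CPM but those of NFE2L2, marker values included, are scaled by the TMM method, which corrects for differences in composition between libraries. In the values that follow, they are given as the lowest, median and highest of 7 libraries per group. The RNA was collected from the opened eyecup, and in such bulk samples fewer cells of a type and less RNA per cell cannot be told apart.

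The 250 bases before the start of transcription (RefSeq, build GRCm38.p6) were read for 30 of the 37 genes, which had 37 promoters between them. Both strands were searched for TCACGTGA, a form of the CLEAR core, for the E-box CACGTG, which every TCACGTGA contains, and for TGACNNNGC, the core of the antioxidant response element. The stretches below belong to Ctsd, Ctsa and Lamp2, which rose, and to Mcoln1 and Atp6v1a, which did not pass the test. All of these but Lamp2 hold TCACGTGA. The promoters of Ctsz, Gaa and Glb1, which also rose, do not hold it and are not printed. Capitals mark any of the 3 motifs.

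Ctsd, chr7:142387828-142388077, minus strand: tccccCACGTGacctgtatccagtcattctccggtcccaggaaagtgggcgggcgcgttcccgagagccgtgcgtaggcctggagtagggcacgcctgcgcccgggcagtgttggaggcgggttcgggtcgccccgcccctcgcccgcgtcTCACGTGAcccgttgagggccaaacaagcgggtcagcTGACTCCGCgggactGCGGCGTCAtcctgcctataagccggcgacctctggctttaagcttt
Ctsa, chr2:164833523-164833772, plus strand: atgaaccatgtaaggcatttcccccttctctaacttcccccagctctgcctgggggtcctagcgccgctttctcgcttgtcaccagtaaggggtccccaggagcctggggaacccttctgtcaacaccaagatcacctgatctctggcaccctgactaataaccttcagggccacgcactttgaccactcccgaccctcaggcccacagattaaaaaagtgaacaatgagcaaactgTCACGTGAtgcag
Lamp2, chrX:38456461-38456710, minus strand: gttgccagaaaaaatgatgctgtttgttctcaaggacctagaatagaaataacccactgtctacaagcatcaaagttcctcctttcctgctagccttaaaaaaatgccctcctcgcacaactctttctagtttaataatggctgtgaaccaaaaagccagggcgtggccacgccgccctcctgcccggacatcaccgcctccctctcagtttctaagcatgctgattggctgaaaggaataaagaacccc
Mcoln1, chr8:3500269-3500518, plus strand: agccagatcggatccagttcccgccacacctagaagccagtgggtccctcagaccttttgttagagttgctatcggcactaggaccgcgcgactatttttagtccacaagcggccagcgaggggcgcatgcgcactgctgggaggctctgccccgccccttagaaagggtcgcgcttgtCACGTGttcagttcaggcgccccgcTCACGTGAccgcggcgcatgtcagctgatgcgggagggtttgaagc
Atp6v1a, chr16:44139260-44139509, minus strand: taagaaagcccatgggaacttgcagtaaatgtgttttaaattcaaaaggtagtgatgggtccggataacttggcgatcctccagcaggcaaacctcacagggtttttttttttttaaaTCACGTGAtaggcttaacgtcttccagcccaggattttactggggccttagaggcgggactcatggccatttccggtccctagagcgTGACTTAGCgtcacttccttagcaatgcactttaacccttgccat

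TCACGTGA was found in 5 of the 37 promoters, those of Atp6v1a, Ctsa, Ctsd, Mcoln1 and Gla, and in 0.785% of all 32851 promoters. CACGTG stood in 11 of the 37, the same 5 together with Atp6v0b, Ctsf, Ctsl, Lamp1, Gaa and Glb1, and in 6.02% of all promoters. TGACNNNGC was matched in 7 of the 37, those of Atp6v0a1, Atp6v1a, Ctsd, Ctsz, Scarb2, Hexa and Psap, and in 10.2% of all promoters. The Ctsd promoter held all 3 motifs, with TCACGTGA from base 99 to base 92 before the start and TGACNNNGC from base 62 to base 54 and, on the other strand, from base 47 to base 39. Lamp2 held none of them in this window, nor did a second promoter of Ctsa that is not printed.

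To determine whether Nrf2 changed the lysosomal genes of the degenerating RPE, the 2 eyes of each mouse were compared. Of the 37 genes, 6 were higher in Nrf2 eyes at an adjusted p under 0.05 (2.94% of all genes tested were) and 0 were lower (0.491% of all genes). The 6 were Ctsd, Lamp2, Glb1, Ctsz, Ctsa and Gaa: 3 cathepsins, 1 membrane protein and 2 glycosidases. Ctsd rose by a factor of 5.13 and the other 5 by factors from 1.63 to 1.86. At an unadjusted p under 0.05, 20 of the 37 were higher and 1, Ctsh, was lower, against 10.7% and 7.49% of all genes. The fitted change was above 0 for 33 and below 0 for 4 (27 and 10 when counts were scaled to their totals), with a median log2 fold change of 0.33, while the median over all genes tested was -0.04. In 13 of the 37 genes the Nrf2 eye was the higher in all 7 mice (5.65% of all genes), and in 0 it was the lower in all 7. The 2 groups did not overlap for 3 genes, Lamp2, Glb1 and Atp6v1a, each higher in Nrf2 (1.22% of all genes). DESeq2, run with the same pairs, called 15 higher and 1, Ctsh, lower, where it called 7.6% of all genes higher and 4.33% lower. Voom called 17 higher and 1 lower, where it called 9.73% and 6.17% of all genes.

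**Figure D1:**
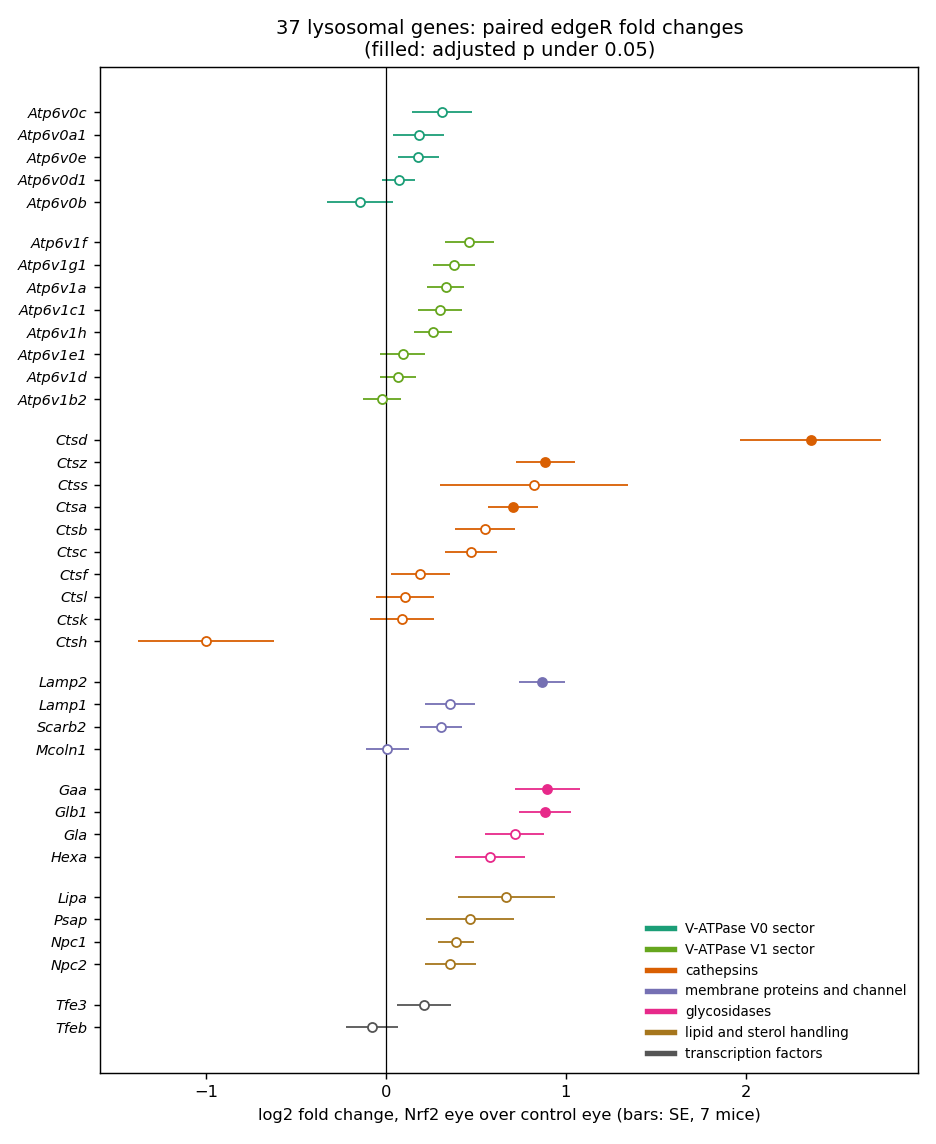
Log2 fold change of each of the 37 genes, Nrf2 eye over control eye, with bars for the SE of the paired edgeR fit to 7 mice, grouped by role; filled points passed an adjusted p of 0.05. Ctsd stands at 2.36, the 5 other filled points lie between 0.71 and 0.90, and Ctsh, at -1.003, lies lowest without passing.

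Ctsd, the main aspartic protease of the lysosome, gave the largest change of the 37. Control eyes held 2501, 4602 and 7109 CPM, and Nrf2 eyes 6715, 23210 and 33030 CPM. The other 6 Nrf2 libraries stood at 18530 CPM or more, above every control, whereas Nrf2 4 lay below the library labelled control 3. Its log2 fold change reached 2.36 (SE 0.39, adjusted p = 0.0186). The difference within a mouse ran from 0.47 in mouse 4 to 3.38 in mouse 1. Ctsd took 0.471% of all counts in the median control library and 2.26% in the median Nrf2 library. Its exons share 808 bases on the same strand with Gm49369, which held 1872 counts over all libraries where Ctsd held 6173232, and whose own log2 fold change was 2.36 (adjusted p = 0.0102).

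Ctsz, a carboxypeptidase also known as cathepsin X, rose by 0.89 on the log2 scale (SE 0.16, adjusted p = 0.0265). It stood at 81.1, 120 and 158 CPM in control eyes and at 154, 235 and 282 CPM in Nrf2 eyes. Ctsa, the serine carboxypeptidase that protects beta-galactosidase and neuraminidase in a complex, rose by 0.71 (SE 0.14, adjusted p = 0.0317). Its levels were 274, 369 and 435 CPM in control eyes and 435, 596 and 677 CPM in Nrf2 eyes. For both genes the groups met at 2 libraries, since the library labelled control 3 was the highest control and Nrf2 4 the lowest Nrf2 library. The exons of Ctsa share 495 bases with Pltp on the opposite strand, and Pltp itself had a log2 fold change of -0.43 (adjusted p = 0.278).

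**Figure D2:**
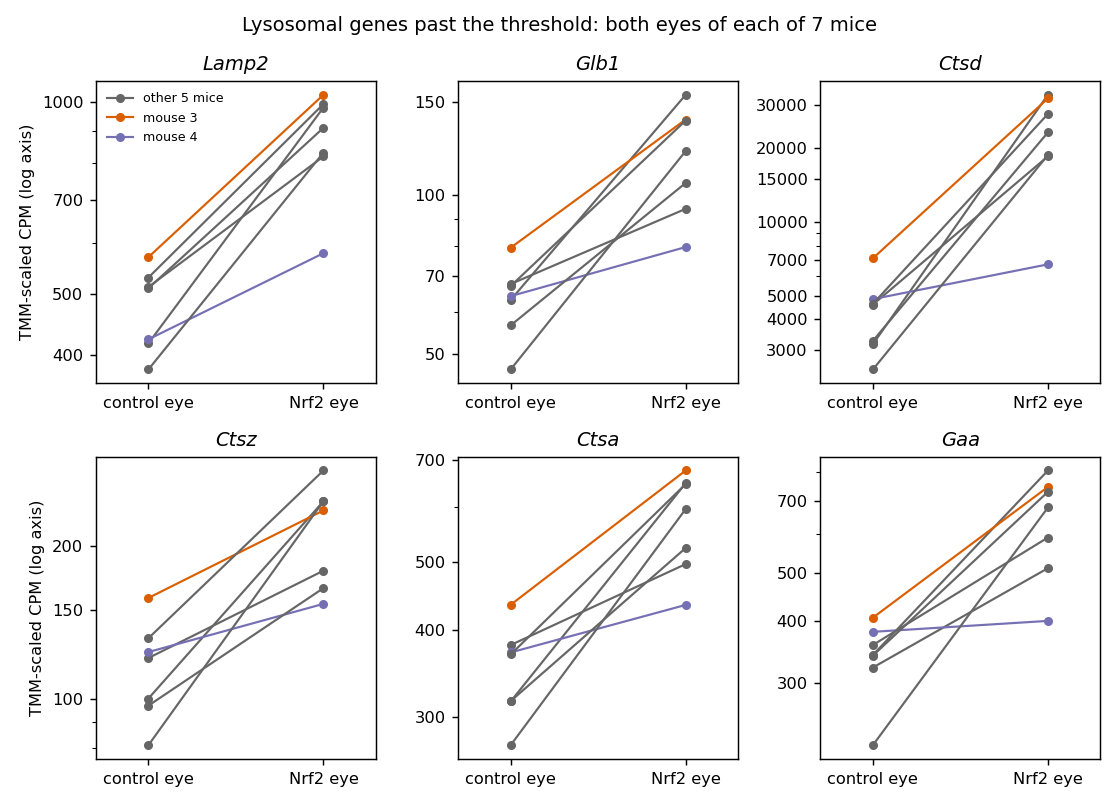
TMM-scaled CPM (log axis) of the 6 genes past the threshold in the control and the Nrf2 eye of each of 7 mice, with a line for each mouse and mice 3 and 4 in colour. Every line goes up, and mouse 4 has the lowest Nrf2 eye in all 6 panels, for Ctsd at 6715 CPM.

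Of the cysteine cathepsins with broad activity, neither Ctsb nor Ctsl passed. Ctsb stood at 1046, 1401 and 1735 CPM in control and at 1653, 2087 and 2551 CPM in Nrf2 eyes, higher in 7 of 7 mice (log2 fold change 0.55, SE 0.17, adjusted p = 0.125). Its exons share 774 bases with Fdft1 on the opposite strand, which gave -0.38 (adjusted p = 0.187). Ctsl, at 557, 747 and 1067 CPM and 685, 836 and 1075 CPM, overlapped over nearly its whole range (0.10, SE 0.16, adjusted p = 0.774). Within a mouse, the log2 change of Ctsd exceeded that of Ctsb by 1.78 ± 0.80 (SD, n = 7) and that of Ctsl by 2.23 ± 1.13 (SD, n = 7), in 7 of 7 mice each. Those pairs were set side by side after their values were seen, and no test was made of them. Ctsc, which activates granule proteases of immune cells, was higher in all 7 Nrf2 eyes without passing (0.47, SE 0.14, adjusted p = 0.128). Ctsf gave 0.19 (SE 0.16, adjusted p = 0.567). Ctsk, the collagen-degrading cathepsin of osteoclasts, was at 18.5, 33.7 and 41.3 CPM in control and at 28.7, 32.2 and 42.5 CPM in Nrf2 eyes (0.09, SE 0.18, adjusted p = 0.828), and only 2 mice had the higher value in the Nrf2 eye.

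Ctss and Ctsh, cathepsins of antigen-presenting and epithelial cells, differed widely between the libraries of a group. Ctss stood at 13.6, 22.1 and 56.3 CPM in control eyes and at 19.1, 23.5 and 128 CPM in Nrf2 eyes (log2 fold change 0.82, SE 0.52, adjusted p = 0.44). It was high in 4 libraries: Nrf2 7, Nrf2 6, Nrf2 4 and the library labelled control 3. The same 4 libraries had the highest sums over 16 macrophage and microglia markers, from 532 to 820 CPM, where the other 10 had from 206 to 385 CPM. The marker sum ranged from 206 to 820 CPM in Nrf2 and from 268 to 541 CPM in control eyes, and no marker was at 0 in all libraries. Fitted changes were above 0 for 14 of the 16 markers and below 0 for Csf1r (-0.76) and Itgam (-0.80), with a median of 1.33. Summed without Csf1r and Itgam, left out with their direction known, the other 14 ranged from 86.6 to 647 CPM in Nrf2 eyes. In control eyes they ranged from 30.9 to 286 CPM. This sum was higher in the Nrf2 eye of 6 of 7 mice, and the same 4 libraries were highest. By edgeR 0 of the 16 passed, with 3 at an unadjusted p under 0.05, while DESeq2 called 3 higher and 1 lower and voom 0. Their part in the Ctss values was not tested.

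Ctsh went the other way. It was at 30.6, 83.8 and 129 CPM in control and at 21.2, 28.0 and 87.1 CPM in Nrf2 eyes, lower in the Nrf2 eye of 6 mice and higher in mouse 4 (log2 fold change -1.003, SE 0.38, adjusted p = 0.211). Without mouse 4, the only mouse that went the other way, it passed (-1.34, adjusted p = 0.00973). That fit called 6.25% of all genes lower, where the fit to 7 mice called 0.491%. Of the 7 fits that left out 1 mouse, 1 called Ctsh. The 8 markers of surface epithelium, mostly keratins from the cover of the eye's outer surface, summed to between 2307 and 60370 CPM in control and between 2795 and 25930 CPM in Nrf2 eyes. None of the 8 was at 0 in all libraries. The sum was highest in control 6 and control 5, which also had the most Ctsh. All 8 had a fitted change below 0 and by edgeR 0 passed, with 2 at an unadjusted p under 0.05, 4 called lower by DESeq2 and 2 by voom. The sum over these markers had a median of 25310 CPM in control and 7955 CPM in Nrf2 eyes. In mouse 4 alone it was higher in the Nrf2 eye, at 23620 CPM against 2307 CPM. Mouse 4 also had the smallest difference for each of the 6 genes past the threshold. Their largest difference was in mouse 6 for Ctsz, Ctsa, Glb1 and Gaa and in mouse 1 for Ctsd and Lamp2. The part of such cells in the values of Ctsh and of those 6 genes was not tested.

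**Figure D3:**
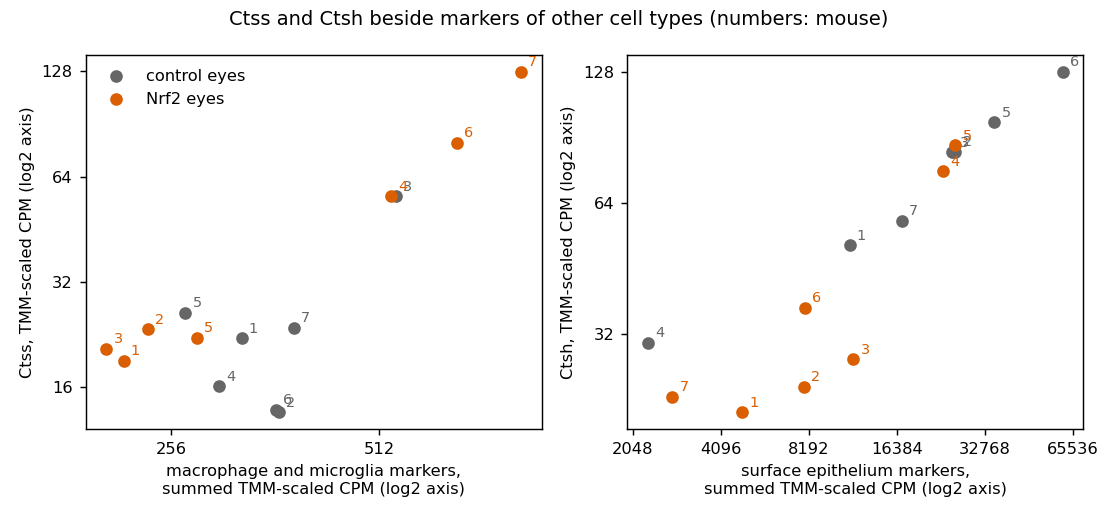
Left, TMM-scaled CPM of Ctss against the sum over 16 macrophage and microglia markers; right, Ctsh against the sum over 8 surface epithelium markers (log2 axes, 1 point per library, numbered by mouse). The 4 libraries above 56 CPM of Ctss are those with the highest macrophage sums, and Ctsh was highest in control 6, where the epithelial sum was 60370 CPM.

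Lamp2, 1 of the 2 major glycoproteins of the lysosomal membrane and a receptor for selective autophagy, had the lowest adjusted p of the 37. It was at 380, 510 and 570 CPM in control and at 579, 910 and 1025 CPM in Nrf2 eyes, so the groups did not overlap. The log2 fold change was 0.87 (SE 0.13, adjusted p = 0.0135). Lamp1, the other glycoprotein, did not pass, at 427, 544 and 638 CPM in control and 485, 705 and 811 CPM in Nrf2 eyes (0.36, SE 0.14, adjusted p = 0.224). Lamp2 changed by 0.51 ± 0.34 (SD, n = 7) more than Lamp1 on the log2 scale, in 6 of 7 mice, a pair also chosen with its values known. Scarb2, the membrane receptor that carries glucocerebrosidase to lysosomes, gave 0.30 (SE 0.12, adjusted p = 0.216). Mcoln1, the calcium channel mucolipin 1, showed no separation of the groups, at 56.5, 75.2 and 92.7 CPM and at 59.4, 74.2 and 85.6 CPM (0.01, SE 0.12, adjusted p = 0.984).

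Among the 4 glycosidases 2 rose. Glb1, the beta-galactosidase of lysosomes, was at 46.6, 64.2 and 79.3 CPM in control and at 79.5, 121 and 155 CPM in Nrf2 eyes (log2 fold change 0.89, SE 0.14, adjusted p = 0.0173), with the groups just apart. The exons of Glb1 share 165 bases on the same strand with Tmppe, a gene with 5503 counts beside 41777 of Glb1. Tmppe itself had a log2 fold change of 0.12 (adjusted p = 0.792). Gaa, the acid alpha-glucosidase that degrades glycogen, rose by 0.90 (SE 0.18, adjusted p = 0.0348) from 225, 342 and 407 CPM to 401, 680 and 808 CPM. The groups met for Gaa, where Nrf2 4 lay below the library labelled control 3. Gla, alpha-galactosidase A, lay just outside the threshold at 0.72 (SE 0.16, adjusted p = 0.0546), with 6 mice higher in the Nrf2 eye. Hexa, the alpha subunit of beta-hexosaminidase, gave 0.58 (SE 0.19, adjusted p = 0.161), and all 7 differences were above 0, the largest, 1.76, in mouse 6, without which the change was 0.38 (adjusted p = 0.132).

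Of the 4 genes of lipid and sterol handling 0 passed by edgeR, although 3 had an unadjusted p under 0.05, and DESeq2 called 1 and voom 3. All of these were higher in Nrf2 eyes, where 10.7% of all genes were at an unadjusted p, 7.6% by DESeq2 and 9.73% by voom. Npc1, which exports cholesterol from the lysosome, came closest, higher in all 7 Nrf2 eyes at 24.8, 32.4 and 42.8 CPM against 28.3, 45.5 and 50.97 CPM (0.39, SE 0.10, adjusted p = 0.0841). Its exons share 511 bases with Rmc1 on the other strand, a gene with 11655 counts beside 17009 of Npc1. Npc2, its soluble partner, gave 0.36 (SE 0.14, adjusted p = 0.232), and Lipa, the acid lipase, 0.67 (SE 0.27, adjusted p = 0.234). In mouse 6 the control eye had 89.98 CPM of Lipa where the other 6 controls had at least 208 CPM, and without that mouse the change was 0.40 (adjusted p = 0.242). Psap, the precursor of the saposins that help degrade sphingolipids, was at 1302, 2238 and 3191 CPM in control and at 2157, 3150 and 3960 CPM in Nrf2 eyes (0.47, SE 0.24, adjusted p = 0.352).

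The fitted changes of the proton pump subunits were small. By edgeR 0 of 13 passed, 5 had an unadjusted p under 0.05, and DESeq2 called 3 and voom 5, all higher. Among all genes tested 10.7% were higher at an unadjusted p under 0.05, 7.6% by DESeq2 and 9.73% by voom. The 5 of voom included Atp6v0c of the V0 sector (0.44, SE 0.12, adjusted p = 0.0363). The median log2 fold change of the 13 was 0.18, with a range from -0.14 to 0.46. The 5 with an unadjusted p under 0.05 by edgeR were V1 subunits, and the sectors were not tested against each other: Atp6v1f (0.46, SE 0.14, adjusted p = 0.123), Atp6v1g1 (0.38, SE 0.12, adjusted p = 0.139), Atp6v1a (0.33, SE 0.10, adjusted p = 0.137), Atp6v1c1 (0.30, SE 0.12, adjusted p = 0.241) and Atp6v1h (0.26, SE 0.11, adjusted p = 0.24). Atp6v1a is the catalytic subunit that binds ATP. Its groups did not overlap, with 295, 325 and 339 CPM in control and 340, 429 and 447 CPM in Nrf2 eyes. Atp6v1h, a regulatory subunit, was at 105, 121 and 126 CPM and at 114, 141 and 166 CPM. The other V1 subunits were Atp6v1e1 at 0.09 (SE 0.13), Atp6v1d at 0.07 (SE 0.10) and Atp6v1b2 at -0.02 (SE 0.10), with adjusted p from 0.737 to 0.933.

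Within the V0 sector the fitted changes were smaller than 2 times their SE. Atp6v0c, the ring subunit through which protons pass, gave 0.31 (SE 0.17, adjusted p = 0.369). The processed copy Atp6v0c-ps2 held 93809 counts beside 385225 of Atp6v0c, so the division between these 2 is uncertain. Atp6v0a1 and Atp6v0e gave 0.18 each (SE 0.14 and 0.11, adjusted p = 0.539 and 0.433). Atp6v0d1, which joins the sectors, was at 93.6, 111 and 119 CPM in control and at 102, 114 and 128 CPM in Nrf2 eyes (0.07, SE 0.09, adjusted p = 0.727). Atp6v0b, another subunit of the ring, was at 310, 384 and 499 CPM and at 215, 389 and 425 CPM (-0.14, SE 0.18, adjusted p = 0.718). Nrf2 2 held the low value. That library had the fewest counts and stood apart in its share of counts in pseudogenes, 2.55%, where the other 13 had from 1.06% to 1.17%, and its part in this value was not tested. Without mouse 2 the change was 0.02 (adjusted p = 0.916).

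The transcription factors that drive lysosomal genes did not pass. Tfeb was at 41.0, 54.9 and 57.7 CPM in control and at 36.9, 45.5 and 69.4 CPM in Nrf2 eyes (-0.08, SE 0.14, adjusted p = 0.815), lower in 6 mice. Tfe3 stood at 38.6, 44.5 and 47.8 CPM and at 31.3, 52.6 and 66.4 CPM (0.21, SE 0.15, adjusted p = 0.495), higher in 5 mice. Of these 2 genes 0 had an unadjusted p under 0.05, and DESeq2 and voom called 0. TFEB and TFE3 are controlled largely by where the protein sits in the cell, which RNA does not show.

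**Figure D4:**
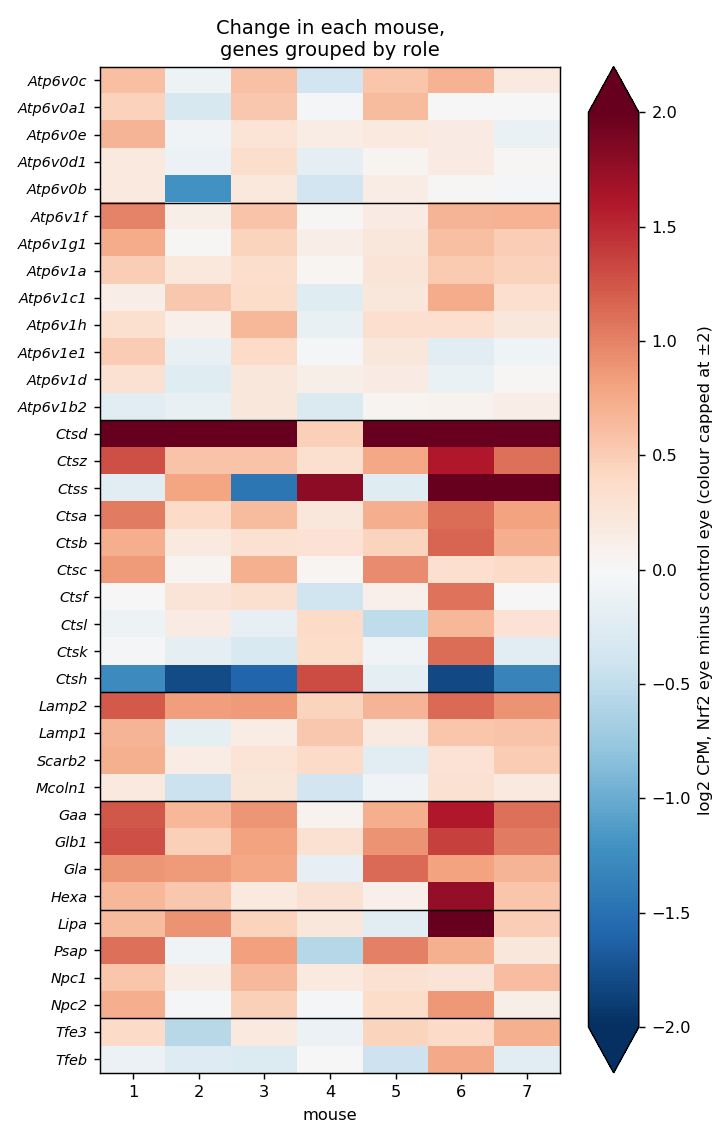
Difference in log2 CPM (prior count 2), Nrf2 eye minus control eye, for each of 37 genes (rows, by role) and each of 7 mice (columns); red is higher in the Nrf2 eye and colours are capped at 2 in either direction. Ctsd is red in every mouse and palest in mouse 4 (0.47), Ctsh is blue in 6 mice and red in mouse 4 (1.31), and the pump subunits are pale apart from Atp6v0b in mouse 2 (-1.21) and Atp6v1f in mouse 1 (0.99).

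Per kilobase of transcript, Ctsd had the highest level of the 37 in both groups, with a median of 2273 CPM per kb in control and 11470 CPM per kb in Nrf2 eyes. It ranked 17 among 16277 genes by median level in control eyes and 3 in Nrf2 eyes. Psap (843 and 1187 CPM per kb) and Atp6v0c (750 and 947 CPM per kb) followed in both groups, and their ranges overlapped each other. At the low end were Npc1 (6.21 and 8.72 CPM per kb) and Gla (3.98 and 7.09 CPM per kb). Lamp2 stood in place 9 of the 37 in control eyes and 5 in Nrf2 eyes, and Ctsh in place 27 and 32. Together the 37 genes took 1.26%, 1.72% and 2.01% of all counts in control eyes and 1.94%, 3.86% and 4.34% in Nrf2 eyes. Without Ctsd the shares were 0.949%, 1.25% and 1.45% against 1.25%, 1.41% and 1.68%, still higher in the Nrf2 eye of 6 mice.

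**Figure D5:**
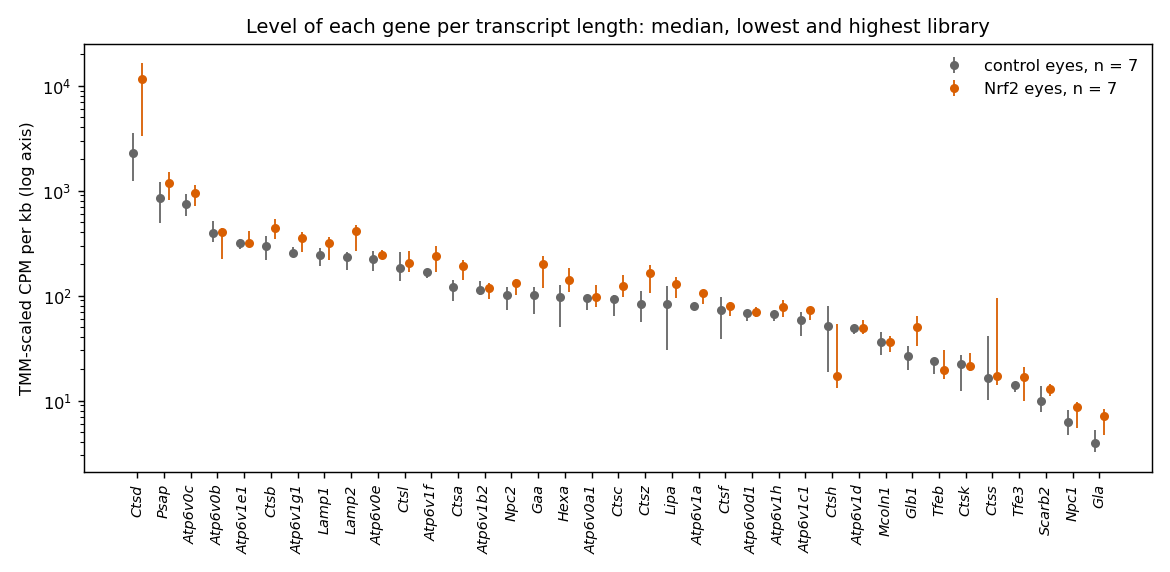
TMM-scaled CPM per kb of transcript (log axis) of the 37 genes in order of their control level, with the median of 7 libraries as a point and bars from the lowest to the highest library. The Ctsd median moves from 2273 to 11470 CPM per kb, and most other pairs of bars overlap.

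The 6 calls were next examined without mice 3 and 4, whose libraries stood apart. All 6 passed again, with adjusted p from 0.0116 to 0.0412, and Ctsd then had a log2 fold change of 2.74 (SE 0.36). Gla joined them (0.87, SE 0.16, adjusted p = 0.0328), which made 7 of 37 higher where 2.97% of all genes were, and Ctsh passed as lower (-1.28, SE 0.25, adjusted p = 0.0404) where 1.53% of all genes were. Leaving out mouse 4 alone gave 11 higher and 1 lower, where it gave 5.99% of all genes higher and 6.25% lower. Leaving out any other mouse lowered the count of calls, to 5 without mouse 2, 2 without mouse 6, 1 without mouse 5 and 0 without mouse 1, 3 or 7. Calls over all genes moved too, from 559 with 7 mice to 387, 240 and 155 without mice 2, 6 and 5 and to 143, 164 and 111 without mice 1, 3 and 7. The fold changes moved far less than the calls. Ctsd stayed between 2.18 and 2.64, Lamp2 between 0.81 and 0.94, Glb1 between 0.79 and 0.98, Ctsz between 0.76 and 0.98, Ctsa between 0.62 and 0.79 and Gaa between 0.77 and 1.03 whichever mouse was left out, and the highest adjusted p was 0.0604 for Lamp2 and 0.128 for Gaa. Scaling to total counts, which moved the median of all genes by -0.13, left 3 calls, Ctsd, Lamp2 and Glb1, and turned the sign of Atp6v0d1, Atp6v1d, Atp6v1e1, Ctsk, Ctsl and Mcoln1.

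A longer list of 93 other lysosomal genes was written for comparison, and 87 of them were tested. Of these 8 were higher and 1 lower, where 2.94% and 0.491% of all genes were, with a median log2 fold change of 0.17. Glycosidases and sulfatases made up 4 of these 9, out of 19 tested, among them Aga (0.93, SE 0.16, adjusted p = 0.0196), Neu1 (0.77, SE 0.15, adjusted p = 0.0288) and Man2b1 (0.69, SE 0.12, adjusted p = 0.0209). Neu1 is the neuraminidase that the product of Ctsa protects. Ppt1, which removes palmitate from proteins, rose by 0.64 (SE 0.14, adjusted p = 0.0436).

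The largest change in the longer list with an adjusted p under the threshold was that of Slc11a1, a metal transporter of phagosomes, from 4.75, 7.34 and 38.2 CPM to 42.4, 140 and 274 CPM (3.87, SE 0.39, adjusted p = 0.00936). Gga2 and Gga3, adaptors that sort enzymes at the Golgi towards lysosomes, went in opposite directions. Gga2 rose from 72.3, 99.9 and 144 CPM to 142, 222 and 349 CPM (1.16, SE 0.16, adjusted p = 0.0116), in 7 of 7 mice. Gga3 fell from 21.6, 27.4 and 35.6 CPM to 14.4, 18.5 and 24.9 CPM (-0.63, SE 0.12, adjusted p = 0.026), in 7 of 7 mice, and the library labelled control 3 lay below Nrf2 4 and Nrf2 5. Of the 12 genes for other factors of the TFEB family and for its control by mTORC1, 0 passed by edgeR, 1 had an unadjusted p under 0.05, and DESeq2 called 0 and voom 1. Both of these were higher in Nrf2 eyes, where 10.7% of all genes were at an unadjusted p and 9.73% by voom. Mitf gave 0.29 (SE 0.14, adjusted p = 0.334) and Tfec, at 6.76 CPM or less, 0.53 (SE 1.45, adjusted p = 0.884). The tetraspanin Cd63 gave 0.10 (SE 0.19, adjusted p = 0.816), and Cd68, a lysosomal protein abundant in macrophages, 0.82 (SE 0.37, adjusted p = 0.291).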

How the data were processed

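RNA of 14 RPE libraries, both eyes of 7 rd1 mice, had been amplified by the authors with a low-input kit and sequenced in 2 runs whose assignment the labels do not give. The table the authors deposited holds 1 whole number per gene and library, treated here as rounded estimated counts without normalization. The study's methods describe STAR with featureCounts and, for the gene-level test, Salmon estimates passed to DESeq2 (mm10, Ensembl release 91), and the labels name Salmon 0.9.1. Which of them filled this table is not given in the sources used here, nor whether counting used strand.

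Counts were analysed with edgeR 4.0.16 (R 4.3.3): TMM scaling, filterByExpr with a minimum count of 10, and the quasi-likelihood F-test with mouse and treatment as terms. Adjustment for multiple tests (Benjamini-Hochberg) ran over 16289 mouse genes. The vector row stayed in the fit but was never counted as a gene. The SE was the absolute log2 fold change over the root of F. The labels number the eyes within each group. Eyes with the same number were taken as the pair from 1 mouse, following the paired design in the paper's methods. The eyes' deviations from their group means correlated at 0.03, 0.07, 0.09, -0.44, 0.41, -0.26 and 0.18 in mice 1 to 7, over 12030 genes. CPM per kb used the median length of a gene's coding transcripts in GENCODE M21.

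The 37 genes, the comparison lists and the markers were chosen with earlier results of these data known, so no p-value was adjusted over a list and no list was tested as a set. Genes are named by this rule: all 37 are accounted for; those past the threshold, the 3 with the largest change in each direction and 14 fixed genes are given with levels; of the longer list, those past the threshold and Mitf, Tfec, Cd63 and Cd68. Some genes of the longer list that the rule names are not reported here. Results were recomputed without the mouse term, with RLE or upper-quartile scaling, with DESeq2 1.42.0, voom with quality weights (limma 3.58.1), other filters, a threshold of 0.01, mice left out, thinned counts and, chosen after seeing the data, no vector row and scaling to total counts.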

Additional observations from a re-analysis of the deposited data

Results flagged for a closer look

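The level of Atp6v0b in Nrf2 2 was 215 CPM, far below the other 6 Nrf2 libraries for the width of the group. The level of Ctss in control 3 was 56.3 CPM, far above the other 6 control libraries. These were 2 of 40 groups of 7 libraries examined in this way, and chance alone flags about 5% of such groups.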

How the results depend on the processing

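The count of differing genes among the 37 depended on the model more than the fold changes did. Against 6 in the paired edgeR test (6 higher, 0 lower), DESeq2 gave 16 (15 higher, 1 lower), voom with quality weights 18 (17 higher, 1 lower), a threshold of 0.01 gave 0 (0 higher), and scaling to total counts 3 (3 higher). Without mice 3 and 4 there was 1 lower. Leaving out 1 mouse gave from 0 to 12 differing, 0 to 11 higher and 0 to 1 lower. Without the replicate block for mouse the fit gave 12 differing, all 12 higher, and 16 of the longer list, where the paired fit gave 9. In the longer list DESeq2 gave 20, voom 24, no filter on low counts 4, the threshold of 0.01 gave 1, scaling to total counts 5, and leaving out 1 mouse from 2 to 14. The count at an unadjusted p under 0.05 was 21, and 13 after scaling to total counts. The median log2 fold change of the 37 stayed between 0.20 and 0.39 in the alternatives run. No alternative turned the sign of a gene past the threshold. Signs turned for genes near 0. With voom these were Atp6v0b (0.0395), Atp6v1b2 (0.0517), Ctsk (-0.0735) and Ctsl (-0.0457), without the vector row Mcoln1 (-0.0172), and after scaling to total counts Atp6v0d1 (-0.0579), Atp6v1d (-0.0618), Atp6v1e1 (-0.0354), Ctsk (-0.0402), Ctsl (-0.0242) and Mcoln1 (-0.122). When 1 mouse was left out, Atp6v0b ranged from -0.2021 to 0.0246, Atp6v1b2 from -0.0511 to 0.0189, Ctsk from -0.0883 to 0.173, Ctsl from -0.0034 to 0.2061 and Mcoln1 from -0.0563 to 0.0768. With upper-quartile scaling Gaa was lost (adjusted p = 0.052), which left 5 of the 37, and without the filter on low counts Gaa (0.0666) and Ctsa (0.0757), which left 4. The share of all genes differing was 3.43% in the paired fit, 11.9% with DESeq2, 15.9% with voom, 6.75% without the block, 0.344% at the threshold of 0.01, 1.19% with no filter, 3.14% after scaling to total counts and from 0.681% to 12.2% when 1 mouse was left out. The cause of these moves was not tested. All 37 genes had at least 246 counts in every library, and the paired fit to 7 mice left 6 residual degrees of freedom.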
